A study of Mus musculus with 4 samples.

Results

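Genes that mark astrocytes were followed in area CA1 of the mouse hippocampus. The members were the probe sets whose platform gene symbol is Gfap, Aqp4, Slc1a2, Slc1a3, Glul, S100b, Clu, Sox2 or Bcan. Symbols decided which probe sets entered, but the genes were chosen with earlier results of these data known. Of these 9 genes, 8 had a probe set, out of 8252 symbols that had a probe set of their own on the array. No probe set carried the symbol Slc1a3, and that gene is not analysed here. The 8 genes had 13 probe sets, 2 each for Gfap, Aqp4, Glul, Clu and Bcan and 1 each for Slc1a2, S100b and Sox2.

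The data are 4 Affymetrix mouse arrays of total CA1 RNA, 1 for each of 4 control samples. The mice were C57BL/6J, an inbred strain, all males described as young, which an experimenter had handled and which had no further treatment. Sampling times of 1, 2, 4 and 6 h count from the last shock of a treated group, which is not analysed here. Each hour had 1 array, how many mice gave RNA to it is not stated in the sources used here, and ± marks the SD over the 4 arrays, which holds differences between samples, hours and arrays together.

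Astrocytes are the glial cells that take up glutamate and potassium around synapses, line blood vessels with their endfeet and supply neurons with glutamine. Their marker genes serve these tasks: a filament protein, a water channel, glutamate transporters, an ammonia-fixing enzyme, secreted carriers and matrix proteins, and a transcription factor kept from neural progenitors. In the hippocampus several of them are also made elsewhere, Sox2 by the stem cells of the dentate gyrus, Glul, S100b and Bcan by cells of the oligodendrocyte lineage, and Clu by some neurons. In RNA from whole tissue, fewer astrocytes and less RNA per astrocyte cannot be told apart.

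None of the 13 probe sets had a value under the floor of 36.8, the 20th percentile of all signals, and all passed the filter, a mean of at least the 40th percentile, a signal of 116.4. The dimmer probe set of Bcan passed through its 1 and 6 h signals, with 77.5 and 45.0 at 2 and 4 h. No detection calls were used. On the brightest probe set of each gene, Bcan and Aqp4 stood above their own means at 2 h and Sox2 and Gfap below, and the dimmer probe sets of Bcan and Gfap lay on the other side of theirs. No trend over the hours passed the test for any of them. Signals are compared between arrays within a probe set only, since probe sets bind with different strength, so the order of levels between genes is not given.

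Of 6 measured markers with a promoter entry, 4 had one at the gene's outermost RefSeq start, and their promoter sequences are shown. At 2 h Sox2 was at its lowest, S100b was at its highest, and the probe sets of Gfap and of Glul disagreed. Each sequence holds the 150 bases before the transcript start, 5′ to 3′ on the gene's strand, from RefSeq on GRCm38.p6, with CCAAT, the box bound by the factor NF-Y, in capitals on either strand (ATTGG on the other strand).
Gfap, chr11:102897201-102897350, minus strand: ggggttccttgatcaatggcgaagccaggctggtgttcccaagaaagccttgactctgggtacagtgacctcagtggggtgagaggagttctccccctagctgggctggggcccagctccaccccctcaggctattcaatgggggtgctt
Glul, chr1:153899779-153899928, plus strand: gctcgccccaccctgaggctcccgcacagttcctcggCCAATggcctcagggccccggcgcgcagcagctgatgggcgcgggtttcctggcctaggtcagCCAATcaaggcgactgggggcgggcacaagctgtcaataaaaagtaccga
S100b, chr10:76253686-76253835, plus strand: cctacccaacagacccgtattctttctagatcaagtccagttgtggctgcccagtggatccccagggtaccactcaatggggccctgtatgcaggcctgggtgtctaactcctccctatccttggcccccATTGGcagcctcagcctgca
Sox2, chr3:34649845-34649994, plus strand: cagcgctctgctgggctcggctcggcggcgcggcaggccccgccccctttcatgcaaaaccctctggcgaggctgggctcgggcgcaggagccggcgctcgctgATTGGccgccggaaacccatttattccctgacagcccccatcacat

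CCAAT stood in 3 of the 4 sequences, at 113 and 50 bases before the start of Glul, 20 before that of S100b and 46 before that of Sox2. Over all 32851 windows of this length in the RefSeq table, 24.5% held it. The promoters shown and the box were chosen after the signals and sequences were seen, so nothing is read from the presence of the box.

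Gfap encodes the intermediate filament of astrocytes, whose level is the usual measure of astrocyte reactivity. Its brighter probe set gave signals of 2165, 1740, 2354 and 2523 at 1, 2, 4 and 6 h, a mean of 2196 ± 337 (SD, n = 4). The 2 h array was the lowest and the other 3 lay within 1.17-fold of each other. The dimmer probe set gave 294, 309, 309.8 and 268, a mean of 295 ± 19.5 (SD, n = 4), with the 6 h array lowest and the 2 h array above its mean. The low 2 h signal of the brighter probe set therefore did not recur on the dimmer one, and limma gave the brighter one an hourly log2 slope of 0.07 with an SE of 0.06 (adjusted p = 0.9996).

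Aqp4 encodes the water channel of the astrocyte endfoot. Its brighter probe set gave 945, 1315, 1221 and 754, a mean of 1059 ± 257 (SD, n = 4). The 2 h array was highest and the 6 h array lowest, 1.74-fold apart. The dimmer probe set gave 139.8, 495, 145 and 109, a mean of 222 ± 182 (SD, n = 4). It had the same highest and the same lowest array, but its 2 h signal was 3.77 times the mean of the other 3, against 1.35 times on the brighter probe set. Over the 1, 4 and 6 h arrays the brighter probe set of Aqp4 ranged over 1.62-fold, the only one of the 8 genes' brightest probe sets to range at least 1.5-fold there, and the dimmer one ranged over 1.32-fold.

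**Figure D1:**
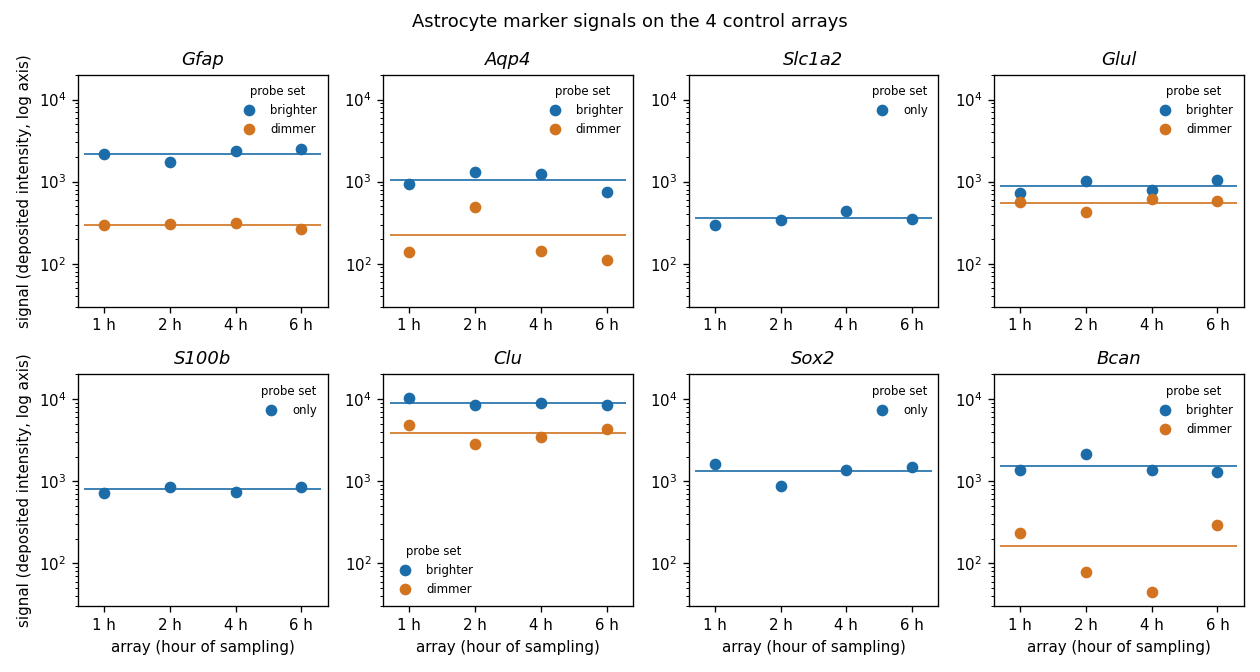
Signals of the 13 astrocyte marker probe sets (deposited intensity, log axis) on the arrays of 1, 2, 4 and 6 h; points are single arrays and lines the mean over 4 arrays. The dimmer probe sets of Aqp4 (109 to 495) and Bcan (45.0 to 293) spread most, while S100b stays between 726 and 861.

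Slc1a2 encodes GLT-1, the transporter that clears most of the glutamate released in the forebrain. It gave 299, 339, 442 and 346, a mean of 356 ± 60.4 (SD, n = 4). The 4 h array was the highest and the 1 h array the lowest, and the 2 and 6 h arrays lay between them.

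Glul encodes glutamine synthetase, which turns the glutamate taken up by astrocytes into glutamine. Its brighter probe set gave 724, 1006, 781 and 1054, a mean of 891 ± 163 (SD, n = 4), with 2 and 6 h high and 1 and 4 h low. The other probe set gave 571, 430.4, 613 and 579.9, a mean of 549 ± 81.0 (SD, n = 4), with 2 h lowest. The probe sets lay on the same side of their means on 1 of 4 arrays. The name of the brighter one carries the manufacturer's suffix for a set built under relaxed probe rules.

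S100b encodes a calcium-binding protein that astrocytes also secrete. It gave 726, 861, 749 and 849.9, a mean of 797 ± 68.6 (SD, n = 4). Its highest signal, at 2 h, was 1.19 times its lowest, the narrowest range among the brightest probe sets of the 8 genes.

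Clu encodes clusterin, a secreted chaperone and lipid carrier. The brighter probe set gave 10369, 8431, 8912 and 8524.5, a mean of 9059 ± 898 (SD, n = 4). The dimmer one gave 4911.5, 2830.1, 3433 and 4330.1, a mean of 3876 ± 925 (SD, n = 4). Both were highest at 1 h and lowest at 2 h, and they ranged over 1.23-fold and 1.74-fold.

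Bcan encodes brevican, a proteoglycan of the matrix around synapses. Its brighter probe set gave 1385.5, 2128, 1366 and 1303, a mean of 1546 ± 390 (SD, n = 4). The 1, 4 and 6 h arrays lay within 1.06-fold of each other, and the 2 h signal was 1.57 times their mean. The dimmer probe set gave 236, 77.5, 45.0 and 293, a mean of 163 ± 120 (SD, n = 4), with 2 and 4 h low. The 2 probe sets of Bcan thus went opposite ways at 2 h, and the dimmer one reached within 2-fold of the floor at 4 h.

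Sox2 encodes a transcription factor of neural stem cells that mature astrocytes retain. It gave 1645, 871, 1361 and 1485, a mean of 1340.4 ± 334 (SD, n = 4). The 2 h signal was the lowest, at 0.582 times the mean of the other 3, which lay within 1.21-fold of each other. Its range of 1.89-fold was the widest among the brightest probe sets of the 8 genes. The probe set, the only one of Sox2, carries the same suffix for relaxed probe rules as the brighter one of Glul. Over the 4 arrays, the genes whose log2 deviations from their own mean came closest to those of Sox2 were Slc32a1, the vesicular GABA transporter (root mean square distance 0.03), Eif4g3, a translation initiation factor (0.03), and Sdhaf1, an assembly factor of the respiratory chain (0.03), out of 6519 probe sets compared. Slc32a1 gave 3861, 2019, 3318 and 3543, also lowest at 2 h. With 4 arrays such likeness describes these arrays and no more.

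The limma fit of a straight line over the hours called 0 of the 13 member probe sets (smallest adjusted p = 0.9996, smallest unadjusted p = 0.237), and 0% of all 7237 tested probe sets. Slopes were above 0 for 8 member probe sets and below 0 for 5, from -0.22 for the dimmer probe set of Aqp4 to 0.07 for the brighter one of Gfap. The share of slopes above 0 was not computed over all tested probe sets. At an unadjusted p under 0.05 limma had 0 of the 13 and 196 of all 7237.

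The spread of the markers was set beside that of all tested probe sets. Taking the brightest probe set of each gene, 3 of 8 (Aqp4, Bcan and Sox2) ranged at least 1.5-fold over the 4 arrays, against 53.6% of all tested probe sets. On these probe sets none of the 8 ranged at least 2-fold, against 22.6% of all. With each array centred on its median, Sox2 ranged over 2.06-fold. With the probe sets of a gene averaged on the log2 scale, Aqp4 ranged over 2.81-fold and Bcan over 2.49-fold. On the brightest probe set of each of the 8 genes the median range was 1.47-fold. It was 1.54-fold for all tested probe sets and 1.37-fold for the 2413 brightest of them. Without the 2 h array 1 of 8 ranged at least 1.5-fold, against 33.1% of all, and the median range of the 8 was 1.21-fold. Dimmer probe sets of the same genes spread more in Aqp4, Clu and Bcan but less in Gfap and Glul.

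**Figure D2:**
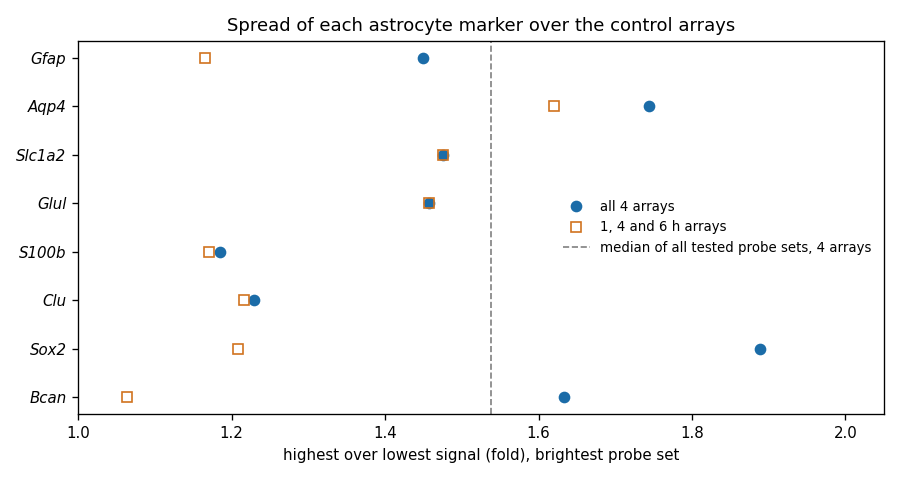
Highest over lowest signal (fold) of the brightest probe set of each astrocyte marker, over all 4 arrays (filled circles) and over the 1, 4 and 6 h arrays (open squares); the dashed line is the median of all 7237 tested probe sets, 1.54-fold. Sox2 and Bcan shrink from 1.89 and 1.63 to 1.21 and 1.06 when the 2 h array is left out, and Aqp4 stays at 1.62.

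Whether the markers varied together was read from the log2 deviation of each gene from its own mean, since 4 arrays are too few for a correlation across samples. At 2 h, Bcan (0.49), Aqp4 (0.35), Glul (0.19) and S100b (0.12) lay above their means. Sox2 (-0.58), Gfap (-0.32), Clu (-0.10) and Slc1a2 (-0.06) lay below. This was 4 of 8 on either side, with a median of 0.03, against 48.8% of all tested probe sets above their means and a median of -0.01.

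The remaining arrays were as mixed, apart from the 1 h array. At 1 h only Sox2 (0.33) and Clu (0.20) were above their own means, 2 of 8 against 49.9% of all, and the median of the 8 was -0.13. At 4 h 4 of 8 were above, led by Slc1a2 (0.32) and Aqp4 (0.24), with a median of 0.02. At 6 h 4 of 8 were above, with Glul (0.26) at one end, Aqp4 (-0.46) at the other and a median of 0.03. Centring each array on its median, which raised the 1 h array by 0.09, brought the 1 h median to -0.04 and turned those of 2 and 6 h to -0.0021 and -0.01. Counted over all 13 probe sets, 5, 6, 6 and 7 lay above their means at 1, 2, 4 and 6 h.

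**Figure D3:**
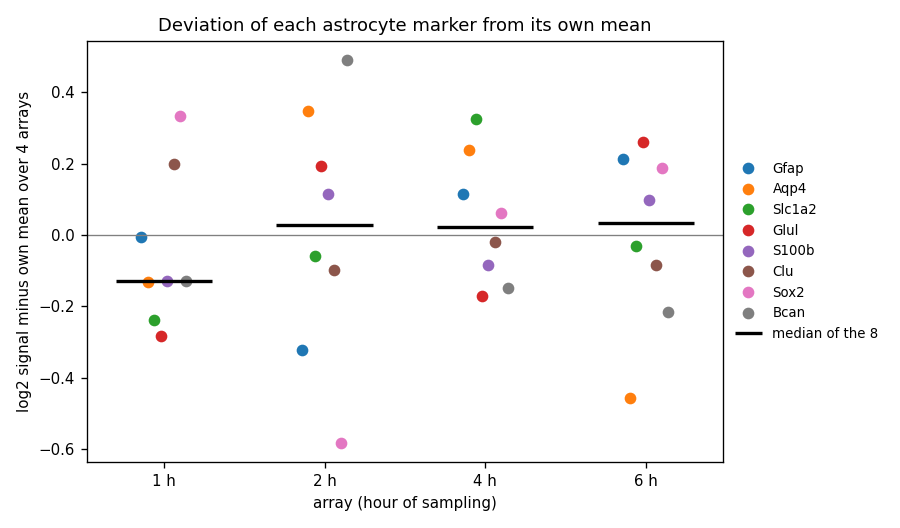
Log2 signal of each astrocyte marker (brightest probe set) minus its own mean over the 4 arrays, by array; black bars are the median of the 8 genes. The points fan out most at 2 h, from -0.58 for Sox2 to 0.49 for Bcan, while the medians stay between -0.13 and 0.03.

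The 2 h array was the highest of 4 for 3 of 8 genes (Aqp4, S100b and Bcan), against 29.2% of all tested probe sets. It was the lowest for another 3 (Gfap, Clu and Sox2), against 32.0% of all. Of the 28 pairs of markers, 5 shared their highest array and 7 shared their lowest. These shares were not computed for pairs of other probe sets. The 16 pairs on opposite sides of their means at 2 h follow from the split of 4 against 4 and add nothing to it. The variance over arrays of the 8 genes' mean deviation, times 8 and divided by the mean variance of the single genes, was 0.14. This ratio averages 1 for genes that vary independently and is 8 for genes that vary identically. It was 0.34 without the 2 h array. The deviations of the markers thus largely cancelled in their mean. For the other gene lists the same ratio ran from 0.11 for 11 interneuron markers to 3.54 for 5 pyramidal neuron markers. It was 0.18 for 24 other astrocyte genes, so a low ratio was not particular to the 8 markers.

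Probe sets of 1 gene did not always agree either. Of the 5 genes with 2 probe sets, 2 (Aqp4 and Clu) had the same highest and the same lowest array on both, and Gfap, Glul and Bcan shared neither. Of the 13 probe sets, 6 carry a manufacturer's suffix other than the plain one. They are the brighter ones of Gfap and Glul, the dimmer ones of Aqp4, Clu and Bcan, and that of Sox2. The 2 probe sets of a gene are therefore not of the same type. The ratio of the brighter to the dimmer probe set ranged from 4.45 to 30.4 over the arrays for Bcan and from 2.66 to 8.44 for Aqp4, but from 5.64 to 9.42 for Gfap and from 1.27 to 2.34 for Glul.

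RNA quality measures and markers of other cells also stood apart at 2 h. The signal ratio of the 3′ over the 5′ control probe set of Gapdh was 1.08 at 2 h and 3.62 to 4.10 on the other arrays, and that of beta-actin was 1.72 against 2.27 to 2.93. Markers of the choroid plexus and ependyma, tissue next to the hippocampus, had a median deviation of 0.56 at 2 h over 4 genes. Of these genes 3 lay above their own means at 2 h and 1 had its lowest signal there. The summed signal of the 4 was 2237 at 2 h and 993 to 1359 on the other arrays. Pyramidal neuron markers lay below their own means in 5 of 5 genes at 2 h (median -0.28), while microglial markers lay above in 6 of 9 (median 0.27) and oligodendrocyte markers in 6 of 9 (median 0.12). Dentate gyrus markers had a median of -0.27 at 2 h over 4 genes, interneuron markers -0.11 over 11, endothelial markers -0.06 over 5 and meningeal markers 0.08 over 5, and the 1 tested blood gene, Hba-a1, lay at -0.04. The part of these measures in the 2 h signals of the astrocyte markers was not tested.

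**Figure D4:**
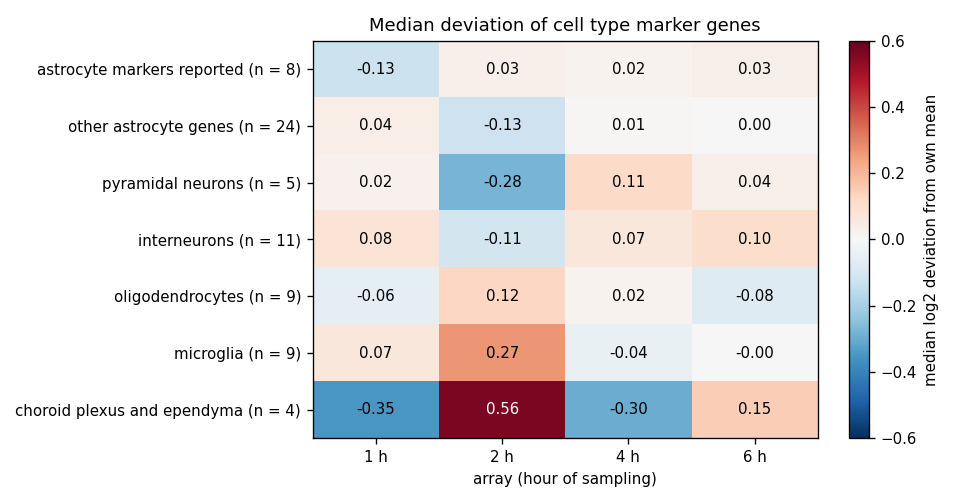
Median over genes of the log2 deviation from each gene's own mean, for marker lists of 7 cell types or tissues (rows, with the number of tested genes) on the 4 arrays (columns). The 8 astrocyte markers stay between -0.13 and 0.03, while choroid plexus and ependyma markers range from -0.35 at 1 h to 0.56 at 2 h.

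Other genes typical of astrocytes also deviated both ways. Of 36 listed, 25 had a probe set and 24 were tested. limma called 0 of the 24 (1, Fgfr3, at an unadjusted p under 0.05). Slopes were above 0 for 13, a share not computed over all tested probe sets. Of the 24, 7 ranged at least 1.5-fold against 53.6% of all tested probe sets. The median range of the 24 was 1.37-fold, the same as for the 2413 brightest tested probe sets. At 2 h 10 of 24 lay above their own means, with a median of -0.13. The brightest were Cst3, the protease inhibitor cystatin C, with 28621 ± 3490.3 (SD, n = 4), and Mt3, a brain metallothionein, with 24501 ± 3703 (SD, n = 4). The widest were Ppp1r3c, a glycogen-targeting phosphatase subunit, with 11.2 at 1 h, under the floor, and 332, 233 and 180.3 afterwards, and Fgfr3, a growth factor receptor, with 247, 169.9, 193 and 64.4.

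Most genes of glutamate and glutamine handling lay high at 1 h and low at 6 h. Of 8 tested genes, 7 lay above their own means at 1 h and 2 at 6 h, against 49.9% and 54.2% of all tested probe sets. The medians of the 8 were 0.27 and -0.20. Slopes were below 0 for 7 of 8 genes, a share that was not computed over all tested probe sets. The ratio taken above for the markers was 2.45 for these 8 genes, and 2.97 without the 2 h array. Whether these genes changed together was not tested. limma called 0 of them, with 1 at an unadjusted p under 0.05. This was Slc1a1, the mainly neuronal relative of Slc1a2, with 590.5, 662, 455 and 330.0, named after its values were seen (unadjusted p = 0.028, adjusted p = 0.9996). The brightest were Glud1, glutamate dehydrogenase, with 2097, 1623, 1447.5 and 1860.3, and Slc1a4, a neutral amino acid transporter, with 1717, 1281, 1584 and 1662. The widest were Pcx, pyruvate carboxylase, with 169.9, 190.0, 205 and 40.3, and Slc38a5, a glutamine transporter, with 865.5, 481, 672.5 and 414. The 6 h signal of Pcx lay near the floor of 36.8. Slc1a2 and Glul, by contrast, had their lowest signals at 1 h on the brightest probe sets.

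The partners of Aqp4 at the endfoot and in potassium uptake and gap junctions had 7 tested genes, of which limma called 0 (0 at an unadjusted p under 0.05). At 1, 2, 4 and 6 h 4, 3, 3 and 6 of the 7 lay above their own means. The median at 6 h was 0.15, where Aqp4 was lowest, and 54.2% of all tested probe sets lay above their means there. Atp1b2, a subunit of the astrocyte sodium pump, gave 222, 653, 266 and 341, high at 2 h like Aqp4. Gja1, connexin 43, gave 6125, 4422.5, 5936 and 5303, low at 2 h, and Dag1, dystroglycan, gave 1677, 1519, 1822 and 1991. Gjb6, connexin 30, gave 526, 635, 322 and 583.

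Genes of intermediate filaments and reactive astrocytes, to which Gfap belongs by role, had 10 tested of 24 listed. limma called 0 of them, with 0 at an unadjusted p under 0.05. At 1, 2, 4 and 6 h 4, 6, 3 and 9 of the 10 lay above their own means. The median at 6 h was 0.19, and 54.2% of all tested probe sets lay above their means there. Whether the 6 h count differs from that share was not tested. Serpina3n, a protease inhibitor induced in reactive astrocytes, gave 1199, 1336.5, 1457 and 1382, and the transcription factor Stat3 gave 972, 840.3, 684 and 971. Nes, the filament protein nestin, gave 322.5, 259, 147 and 274, and Serping1, an inhibitor of complement, gave 195, 114, 38.9 and 224.

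The relatives and partners of Bcan, Clu, Sox2 and S100b had 3, 6, 9 and 6 tested genes, and limma called 0 in each list, with 0 at an unadjusted p under 0.05. Ncan, neurocan, the close relative of Bcan, gave 349, 270.1, 180.1 and 383, and Ptprz1, a phosphatase that is also a matrix proteoglycan, gave 1456, 873, 1195 and 1171. Neither was high at 2 h as the brighter probe set of Bcan was. Apoe, the main lipid carrier of astrocytes, gave 20678, 26213, 20374 and 21123.5, highest at 2 h where Clu was lowest, and its receptor Lrp1 gave 1805, 2525, 1899 and 2074. Lpl, a lipase, gave 426, 209, 242 and 339, and Abca1, a cholesterol exporter, gave 366, 229.5, 331 and 370.4, both lowest at 2 h. In the Sox and progenitor list 5, 6, 6 and 2 of 9 lay above their own means at 1, 2, 4 and 6 h. Of all tested probe sets 48.8% to 54.2% did. Sox4 gave 642, 875, 877 and 743, and Sox10 gave 1157, 945, 1041 and 973.5. The widest of that list were Hes1, a Notch target, with 298.5, 515, 554 and 591, and Id1, an inhibitor of differentiation, with 252, 224, 155 and 154. Among S100 relatives S100a13 gave 1941, 1770.1, 1752 and 1717, and S100a10 gave 1121, 954, 957 and 1103, both highest at 1 h where S100b was lowest. Ager, a receptor of S100 proteins, gave 378, 83.0, 176 and 412, and S100a4 gave 141, 69.1, 130.0 and 241, the widest of their list and both lowest at 2 h.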

How the data were processed

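The authors deposited linear intensity values, 1 for each of 12488 probe sets on each array; the sources used here do not name the software that made them, and no detection calls were used. Without 2% of the values at each end, the array means lay within 0.0062% of each other, so the arrays appear scaled to 1 mean and the values were used without further normalization. Values under the pooled 20th percentile (36.8) were raised to it before log2 was taken; probe sets with a mean at or above the pooled 40th percentile (116.4), 7237 without the 66 controls, were tested. Symbols came from the platform annotation, updated through gene identifiers, and probe sets with several symbols were not named. The gene is represented by its brightest tested probe set where 1 value is needed.

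A slope over hours was fitted with limma 3.58.1 in R 4.3.3 over all tested probe sets (2 residual degrees of freedom, mean-dependent prior, two-sided, Benjamini-Hochberg, threshold 0.05). A run on simulated data gave every probe set the same spread and planted slopes steeper than those of the members. It therefore cannot show how well slopes of the members' size would be found. All other comparisons between arrays have no test. With 1 array per hour, the number of arrays limits the precision. The p-values set each slope against the scatter of the arrays around a straight line. That scatter holds differences between samples, hours and arrays together. Named beside the 8 markers are, in lists, the 2 widest and 2 brightest tested genes; the cell type lists other than astrocytes are given as counts and medians. The members and lists were chosen with earlier results of these data known, and the CCAAT motif and the promoters shown were chosen after the sequences and signals were seen. Alternatives covered normalization, floor, filter, probe sets of a gene, variance prior, time scale and leaving out each array.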

Additional observations from a re-analysis of the deposited data

Results flagged for a closer look

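The gap from an outlying array to the nearest one, as a share of the whole range, was taken on linear signals. Among the 13 member probe sets, 2 had a share above Dixon's critical value for 4 samples. They were the dimmer probe set of Aqp4 (0.908, 495 at 2 h against 109 to 145) and the brighter probe set of Bcan (0.8996, 2128 at 2 h against 1303 to 1385.5). Both lay on the 2 h array, which was the highest of 4 for 29.2% and the lowest for 32.0% of all tested probe sets. On the log2 scale used for the deviations, the dimmer probe set of Aqp4 (1.44 at 2 h against -0.73 to -0.33) falls under the limit. The brighter probe set of Bcan stays past it. Chance alone flags about 1 in 20 groups of this size. The share of all tested probe sets past this limit was not computed, so the count is not read as a trait of the markers. The second probe set of Aqp4 was also highest at 2 h (1315), while that of Bcan was low there (77.5).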

How the results depend on the processing

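The number of member probe sets called for a slope was 0 in the 12 alternative fits run. Over all tested probe sets limma called 0 in each of these fits except that without the 2 h array, which called 32, so that leaving out each array in turn gave 0 to 32. The number of markers ranging at least 1.5-fold was 1 to 3 when each array was left out, with 1 only without the 2 h array. It was 2 with plain probe sets only and 3 under each change of scaling. The floor and filter alternatives changed no range or slope of the markers' brightest probe sets. No floor used reached those signals, so these alternatives say nothing about how stable the ranges are. Leaving out an array turned the sign of 4 uncalled slopes (log2 per hour): they ranged from -0.20 to 0.10 for Aqp4, from -0.0578 to 0.00398 for Clu, from -0.00455 to 0.0430 for S100b and from -0.0344 to 0.193 for Sox2. The median deviation of the markers moved to -0.0354 at 1 h with median centring, to -0.0845 at 2 h with the probe sets of a gene averaged, and to -0.0827 at 6 h with plain probe sets only, a choice that leaves out Sox2 and exchanges the probe sets of Gfap and Glul. No paired analysis was possible because there is 1 group of samples with 1 array per hour. With the probe sets of a gene averaged, the fold range rose to 2.81 for Aqp4 and 2.49 for Bcan, and without the 2 h array it fell to 1.21 for Sox2 and 1.06 for Bcan. The number of arrays limits the precision, and the dimmer probe set of Bcan came within 2-fold of the floor.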
